A study of Saccharomyces cerevisiae with 6 samples.

Results

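The 10 genes of phosphatidylcholine synthesis described here, from the budding yeast Saccharomyces cerevisiae, were followed in a met4 deletion mutant compared directly with wild type. The genes were fixed by symbol, and all 10 were found among the 5539 genes measured. CHO1, PSD1, PSD2, CHO2 and OPI3 make phosphatidylcholine from CDP-diacylglycerol by way of phosphatidylserine, phosphatidylethanolamine and its methylation. CKI1, PCT1, CPT1, EKI1 and EPT1 belong to the Kennedy route, which builds phosphatidylcholine and phosphatidylethanolamine from choline and ethanolamine.

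The mutant lacked the MET4 gene according to the series title, and mutant and wild type alike had spent 1 hour in 0.2 mM arsenite, As(III). Each of 6 two-colour arrays carried total RNA of the exposed mutant in Cy3 and total RNA of the exposed wild type in Cy5. Whether the arrays stem from separate cultures is not in the labels. The p-values therefore set each mean against the spread between these arrays, and that spread may be technical. No unexposed cells were analysed here, and the labels give no strain background beyond the deletion.

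Phosphatidylcholine is a major membrane phospholipid of yeast. In the absence of external choline, cells make it by adding methyl groups to phosphatidylethanolamine with S-adenosylmethionine as the donor, a compound whose sulfur comes from the pathway that the activator Met4 switches on. The Kennedy route instead activates free choline or ethanolamine by phosphorylation and coupling to CDP, and joins the product to diacylglycerol without using S-adenosylmethionine. Many genes of both routes carry the inositol- and choline-sensitive promoter element that the Ino2-Ino4 activator binds and that the repressor Opi1 opposes.

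All values are log2 ratios of mutant over wild type, with the median of every array set to 0. The sources used here name neither the numerator nor the log base. The direction is called likely, from the order in the sample titles and from MET4 itself, which averaged -0.59 ± 0.25 (SD, n = 6; limma, adjusted p = 0.0112), with 6 of 6 arrays below 0. This is only a 1.51-fold lower level, at the 4.39th percentile of gene means, so many genes lay below the gene named as deleted, and the values do not show that its transcript was absent. As deposited, without centring, MET4 averaged -0.47 ± 0.64 (SD, n = 6; limma, adjusted p = 0.600), was not called and was above 0 on array 3. The direction of every value below rests on this likely reading. If the values were natural logarithms, each unit would be 1.44 log2 units. All arrays carry the dyes the same way, so a dye bias of a gene cannot be told apart from the effect of the mutation. Between arrays, r across genes ran from 0.0817 to 0.759 over 15 pairs, with array 2 furthest from the rest at a mean r of 0.291. Of the 5539 genes, 836 passed an adjusted p of 0.05, 521 higher and 315 lower in the mutant, against 187 higher and 59 lower in the values as deposited. Each of the 10 genes was printed as 2 spots, and these differed by a median of 0.08 and at most 0.52 (PCT1) on the log2 scale.

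Transcripts of 5 of the 10 genes were higher in the mutant and none was lower. The 5 were CHO1, PSD1 and OPI3 of the CDP-diacylglycerol route and CKI1 and CPT1 of the Kennedy route. Over all genes, 15.1% were called, 9.41% as higher and 5.69% as lower. The median of the 10 means was 0.43, against 0.0053 over all genes, and 9 of the 10 means were above 0. CHO1, PSD1, CKI1 and CPT1, 4 of the 10, were above the array median on all 6 arrays, as were 9.89% of all genes. The number called was 4 without array 1 or array 2, 3 without array 3 or array 5, and 2 without array 4 or array 6. Only CHO1 was called under every one of the 16 alternatives run.

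**Figure D1:**
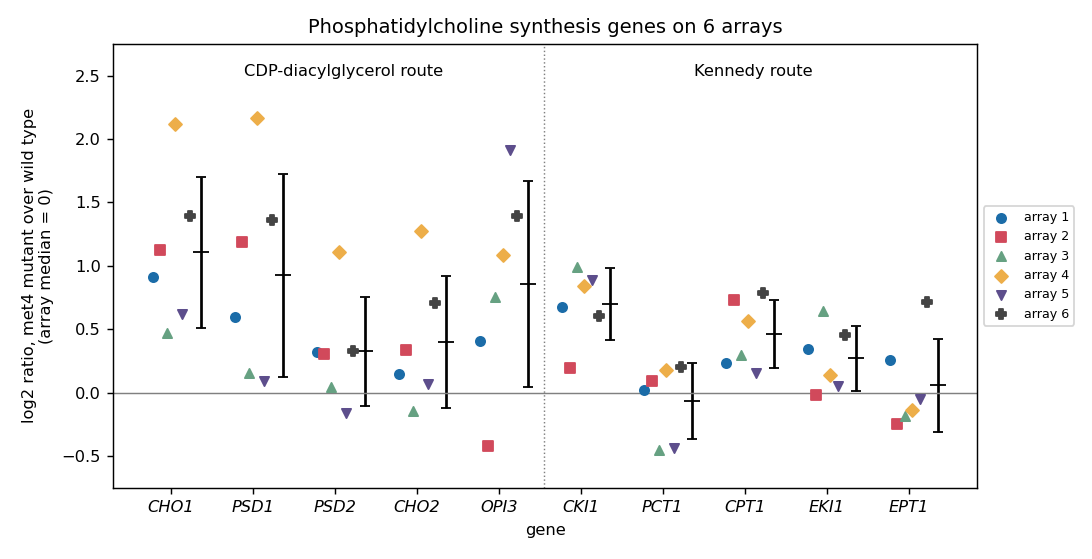
Log2 ratio of the met4 mutant over wild type (vertical axis, array median at 0) for each of the 10 genes (horizontal axis), with 1 symbol per array and the mean ± SD of 6 arrays at the right of each gene. CHO1, PSD1, CKI1 and CPT1 lie above 0 on every array, and the spread between arrays is widest for OPI3 and PSD1.

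CHO1 (YER026C) encodes phosphatidylserine synthase, which joins serine to CDP-diacylglycerol and opens the route. It stood at 0.91, 1.12, 0.47, 2.12, 0.62 and 1.39 on arrays 1 to 6. All 6 values were above the array median, with array 4 highest and array 3 lowest. The mean was 1.11 ± 0.60 (SD, n = 6), a 2.15-fold higher level in the mutant (limma, adjusted p = 0.00295), and lay at the 98.6th percentile of all gene means. The exact two-sided sign-flip permutation test gave p = 0.0312, the smallest that 6 arrays allow.

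Phosphatidylserine is decarboxylated to phosphatidylethanolamine by 2 enzymes, Psd1 in the mitochondrial inner membrane and Psd2 in the endomembrane system. PSD1 (YNL169C) stood at 0.60, 1.19, 0.15, 2.16, 0.09 and 1.36 on arrays 1 to 6. It was far above the median on arrays 2, 4 and 6 and close to it on arrays 3 and 5. Its mean of 0.93 ± 0.80 (SD, n = 6) passed the threshold (limma, adjusted p = 0.0211), but not without array 4 (adjusted p = 0.0528) or array 6 (0.0831). PSD2 (YGR170W) stood at 0.32, 0.31, 0.05, 1.11, -0.16 and 0.33. Array 4 was again the highest. Its mean of 0.33 ± 0.43 (SD, n = 6) did not pass (limma, adjusted p = 0.195). It was 0.17 without array 4, and 0.53 when runs of neighbouring spots were centred separately, where it passed (adjusted p = 0.0193). PSD2 was below PSD1 on 6 of 6 arrays, by 0.60 ± 0.44.

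The methylation steps themselves are carried out by Cho2, which adds the first methyl group to phosphatidylethanolamine, and Opi3, which adds the remaining ones. CHO2 (YGR157W) stood at 0.15, 0.34, -0.15, 1.28, 0.07 and 0.71 on arrays 1 to 6. On 5 arrays the value was above the array median and on array 3 it was below. The mean of 0.40 ± 0.52 (SD, n = 6) did not pass (limma, adjusted p = 0.154; 95% interval 0.02 to 0.78 before adjustment), and it was 0.22 without array 4. OPI3 (YJR073C) stood at 0.41, -0.42, 0.75, 1.09, 1.91 and 1.39. Here array 5 was the highest and array 2 the only one below the median, an order unlike that of the other 4 genes of the route. The mean of 0.86 ± 0.81 (SD, n = 6) passed (limma, adjusted p = 0.0315). Its call was lost without array 3, 4, 5 or 6 (adjusted p = 0.0664, 0.0853, 0.0964 and 0.117), and the exact two-sided sign-flip permutation test gave p = 0.0938. Among all genes, OPI3 ranked at the 21.7th percentile on array 2 but at the 99.0th on array 5.

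In the choline branch of the Kennedy route, CKI1 (YLR133W), the choline kinase gene, stood at 0.68, 0.19, 0.99, 0.84, 0.89 and 0.61 on arrays 1 to 6. All values were above the array median and array 2 was the lowest. The mean of 0.70 ± 0.29 (SD, n = 6) was a 1.62-fold higher level in the mutant (limma, adjusted p = 0.00557). CKI1 kept its call without each array in turn and lost it in the values as deposited (adjusted p = 0.120).

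PCT1 (YGR202C) encodes the enzyme that turns phosphocholine into CDP-choline, regarded as the rate-limiting enzyme of this branch. It stood at 0.02, 0.09, -0.45, 0.18, -0.43 and 0.20 on arrays 1 to 6. Arrays 3 and 5 were clearly below the array median and the other 4 close to or slightly above it. Its mean of -0.07 ± 0.30 (SD, n = 6) was the lowest of the 10 genes and did not pass (limma, adjusted p = 0.799; 95% interval -0.37 to 0.23). The mean was above 0 as deposited (0.05), with runs of spots centred separately (0.04) and without array 3 or array 5. CPT1 (YNL130C), the cholinephosphotransferase gene of the last step, stood at 0.24, 0.73, 0.29, 0.57, 0.16 and 0.79. It was above the median throughout, and highest on arrays 2 and 6. The mean of 0.46 ± 0.27 (SD, n = 6) passed (limma, adjusted p = 0.0371), but the call was lost on leaving out any single array, with adjusted p between 0.0502 and 0.116, and in the values as deposited (0.427).

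Neither gene of the ethanolamine branch passed. EKI1 (YDR147W), the ethanolamine kinase gene, stood at 0.35, -0.02, 0.64, 0.14, 0.05 and 0.46 on arrays 1 to 6, with a mean of 0.27 ± 0.26 (SD, n = 6; limma, adjusted p = 0.195). With runs of neighbouring spots centred separately its mean was 0.0051. EPT1 (YHR123W), whose product transfers phosphoethanolamine and also phosphocholine to diacylglycerol, stood at 0.26, -0.25, -0.18, -0.14, -0.05 and 0.72. Array 6 was the high value and 4 arrays were below the median. Its mean was 0.06 ± 0.37 (SD, n = 6; limma, adjusted p = 0.835), and -0.07 without array 6. ECT1, the gene for the CDP-ethanolamine-forming enzyme between them, was not among the 10 and had a mean of -0.0014 ± 0.44 (limma, adjusted p = 0.996).

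The pairs of related enzymes differed between the branches. EKI1 was below CKI1 on 6 of 6 arrays, by 0.43 ± 0.28, and by 0.57 ± 0.24 with runs of neighbouring spots centred separately. EPT1 was below CPT1 on 5 of 6 arrays, by 0.40 ± 0.39. With runs of neighbouring spots centred separately it was below on 4 of 6 arrays, by 0.33 ± 0.44. The members of each pair are similar in sequence, and a signal shared between their spots was not tested.

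In the order of their means the 10 genes ran CHO1, PSD1, OPI3, CKI1, CPT1, CHO2, PSD2, EKI1, EPT1 and PCT1. Each differed from its neighbour in this order by 0.06 to 0.24, less than the SD of that difference over the arrays in all 9 steps. The genes of the CDP-diacylglycerol route therefore stood at both the top and the middle of the order.

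Comparing the methylation steps with the Kennedy route, the mean of CHO2 and OPI3 was 0.63 ± 0.51 and the mean of the 5 Kennedy genes 0.29 ± 0.15 (SD, n = 6 each). On arrays 1 to 6 the difference between these means was -0.03, -0.19, 0.04, 0.86, 0.87 and 0.50. It was close to 0 on arrays 1 and 3, below 0 on array 2 and well above 0 on the other 3 arrays. The 2 methylation genes were unlike, with means of 0.40 for CHO2 and 0.86 for OPI3, and OPI3 was the higher on 4 of 6 arrays. On array 5 CHO2 was at 0.07, below the Kennedy mean of 0.12. The mean difference between the methylation steps and the Kennedy route was 0.34 ± 0.47, smaller than the SD of single arrays. The methylation steps were not above the Kennedy route on every array. This describes the arrays and does not test whether the mean difference is other than 0. No p is given for this or the next differences, because they are scores over genes chosen with earlier results known.

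With CHO1, PSD1 and PSD2 counted in, the CDP-diacylglycerol route averaged 0.72 ± 0.48. It exceeded the Kennedy route by 0.17, 0.36, -0.0026, 1.23, 0.38 and 0.48 on arrays 1 to 6. The difference was above 0 on 5 of 6 arrays, and the mean difference of 0.44 ± 0.43 became 0.28 ± 0.19 without array 4. Against the choline branch alone, which averaged 0.37 ± 0.13, CHO2 and OPI3 were higher by 0.26 ± 0.46, on 4 of 6 arrays. That difference was 0.16 without array 5 and 0.14 when the most alike arrays, 3 with 5 and 4 with 6, were averaged. These differences lie within an array, so centring on the array median does not affect them.

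**Figure D2:**
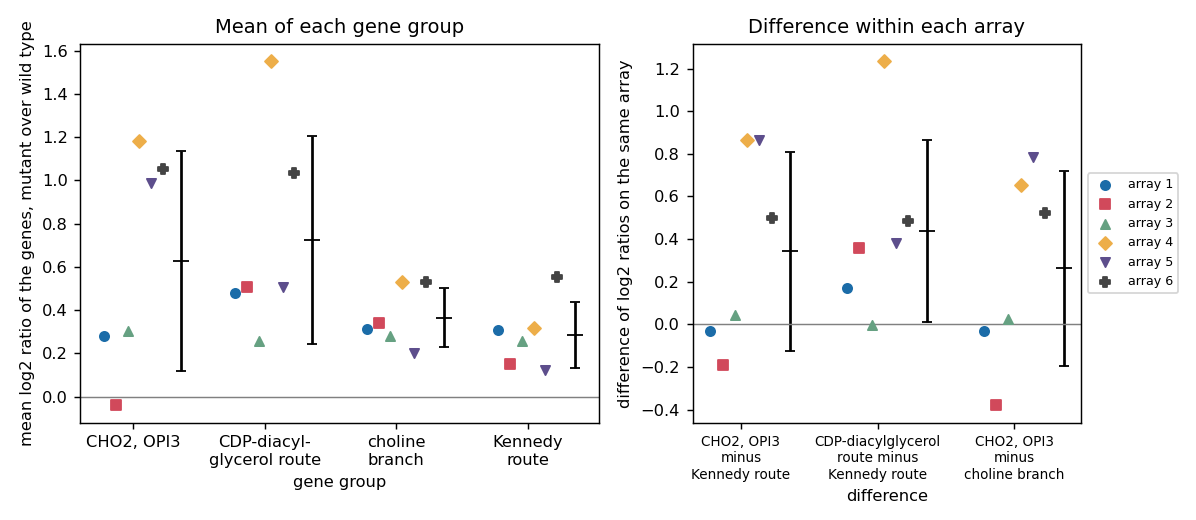
Left, the mean log2 ratio of the genes in each group on each array, with the mean ± SD of 6 arrays at the right. Right, the difference between groups on the same array. The difference between CHO2 with OPI3 and the Kennedy route runs from -0.19 on array 2 to 0.87 on array 5.

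Gene by gene, CHO1 was above 3 of the 5 Kennedy genes (PCT1, CPT1 and EPT1) on every array, PSD1 above PCT1 and EPT1, and CHO2 and PSD2 above PCT1. OPI3 was above none of them on every array. No gene of the CDP-diacylglycerol route was below a Kennedy gene on every array, but CHO2 was below CPT1 on 5 of 6, by 0.06 ± 0.41. In their means CHO2 and PSD2 were also below CKI1, by 0.30 ± 0.62 and 0.37 ± 0.54. PSD2 was below CPT1 by 0.14 ± 0.38. CHO1 exceeded PCT1 by 1.17 ± 0.39, the widest gap of these.

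The routes differed also in how far their genes varied between arrays. The SDs were 0.43 to 0.81 in the CDP-diacylglycerol route, at the 67.8th to 97.4th percentile of all genes. In the Kennedy route they were 0.26 to 0.37, at the 22.7th to 54.3rd percentile. The median SD over all genes was 0.35. This spread is given as a description, without a test.

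CHO1, PSD1, PSD2 and CHO2 moved together from array to array, and OPI3 did not. By the correlation r over the 6 arrays, PCT1 (0.74 to 0.87) and, less closely, CPT1 (0.47 to 0.74) moved with CHO1, PSD1, PSD2 and CHO2. CHO1 exceeded CHO2 by 0.76, 0.79, 0.62, 0.84, 0.56 and 0.68 on arrays 1 to 6. That difference of 0.71 ± 0.11 was nearly the same on every array, although each gene alone spanned more than 1 log2 unit. It was less steady under quantile normalization (0.83 ± 0.26) and with arrays scaled to the same spread (0.72 ± 0.18). The counts of steadier genes below are for the median-centred values only. None (0) of the 5538 other genes kept a steadier difference from CHO1 than CHO2 did, and the median SD of such differences was 0.67. Conversely, 2 genes kept a steadier difference from CHO2 than CHO1 did. The other pairs of the route were less close, with 50 genes steadier against CHO1 than PSD1 was and 101 steadier against CHO2 than PSD2 was. Over the 6 pairs among CHO1, PSD1, PSD2 and CHO2 the SD of the difference was 0.11 to 0.44. PCT1 lay within that range against PSD2 (0.29), CHO2 (0.34) and CHO1 (0.39) and above it against PSD1 (0.56). CPT1 lay within it against PSD2 (0.38) and CHO2 (0.41) and above it against CHO1 (0.48) and PSD1 (0.63). The SD of a difference depends also on how widely each gene varied, so it does not rank genes by joint movement. Among CHO1, PSD1, PSD2 and CHO2, both PCT1 and CPT1 had their highest r with PSD1 (0.87 and 0.74). Over the 4 pairs of OPI3 with CHO1, PSD1, PSD2 or CHO2 the SD was 0.91 to 1.22. Over the 10 pairs within the Kennedy route it was 0.19 to 0.52. These small SDs do not show joint movement, because each Kennedy gene alone varied little. Among these pairs r ran from -0.66 (CKI1 with CPT1) to 0.78 (PCT1 with CPT1). Within that route the steadiest pair was CPT1 and PCT1, with CPT1 higher by 0.53 ± 0.19 on 6 of 6 arrays (0.33 ± 0.24 with runs of neighbouring spots centred separately). These measures were chosen after the values had been seen and carry no test.

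**Figure D3:**
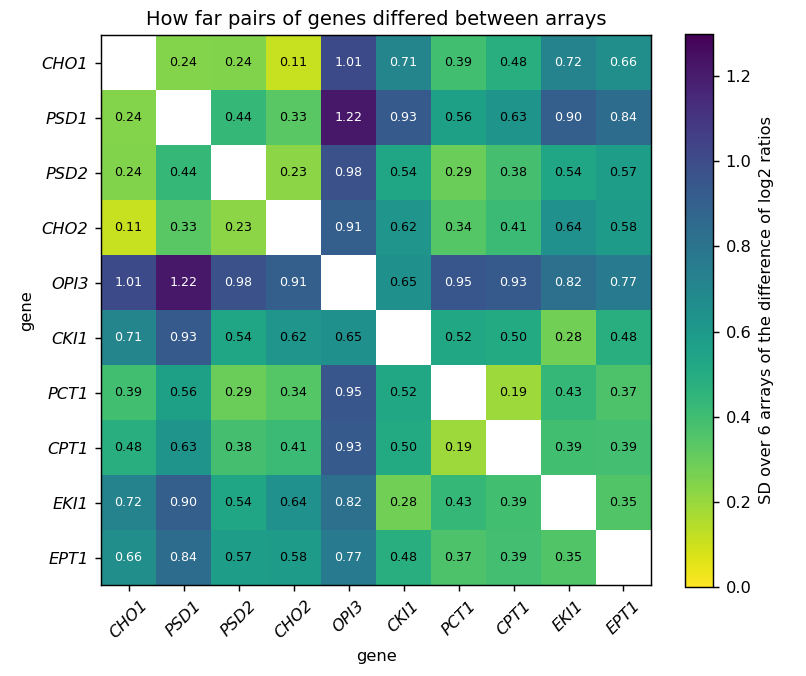
SD over 6 arrays of the difference in log2 ratio for each pair of the 10 genes, which are ordered by route on both axes. Light cells are pairs that kept a steady difference, such as CHO1 and CHO2 at 0.11. The darkest row and column belong to OPI3, and PSD1 is also dark against CKI1 (0.93), EKI1 (0.90) and EPT1 (0.84).

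By correlation over the 6 arrays, the 3 genes most like CHO2 were RRP45, MCH5 and CHO1, with r = 0.996, 0.992 and 0.991. For OPI3 they were PAA1, TMA17 and IDS2 (r = 0.991, 0.985 and 0.977), for PCT1 they were SNU23, RNR1 and BAS1 (0.992, 0.992 and 0.991), and for CPT1 they were COG4, RPI1 and SLY41 (0.985, 0.984 and 0.981). With 6 arrays and 5538 candidates each gene had such close matches, and the arrays share dye orientation, so these values only describe the arrays.

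Among other genes of phospholipid metabolism, 9 of 68 measured were higher in the mutant and 2 lower, against 9.41% and 5.69% of all genes. Their median was 0.06. The count of 11 called genes became 7 without array 1 and 6 without array 3. In the values as deposited 3 genes were called, all higher.

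Control of the routes lies with Ino2, Ino4 and Opi1. INO4, which encodes a subunit of the activator, stood at 0.59, 0.89, 0.64, 0.95, 0.57 and 1.50 on arrays 1 to 6. OPI1, the repressor gene, stood at 0.57, 0.70, 0.70, 0.89, 0.71 and 1.20. Both genes were above the median on every array and highest on array 6, and their means were 0.86 ± 0.35 and 0.79 ± 0.22 (SD, n = 6; limma, adjusted p = 0.00273 and 0.00197). OPI1 was not called in the values as deposited (adjusted p = 0.0646). The other 4 genes of this list of 6 did not pass. Over all genes 9.41% were called higher.

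For inositol and choline supply, 2 of 7 genes rose and none fell, against 9.41% and 5.69% of all genes. INO1, the inositol 3-phosphate synthase gene and a classical Ino2-Ino4 target, stood at 2.14, 2.19, 0.83, 3.19, 2.80 and 3.53 on arrays 1 to 6, lowest on array 3 as CHO1 was. ITR1, the inositol transporter gene, stood at 2.52, 2.95, 0.87, 2.63, 1.83 and 2.76, with array 3 again lowest. Both lay above all 10 phosphatidylcholine genes in their means of 2.45 ± 0.96 and 2.26 ± 0.78.

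Upstream, 3 of 14 genes for phosphatidic acid and CDP-diacylglycerol rose and none fell, against 9.41% and 5.69% of all genes. Their median was 0.33. The list also holds phosphatidate phosphatase genes, so this is not a count of genes that feed Cho1. CDS1, which encodes the CDP-diacylglycerol synthase that feeds Cho1, was higher on 6 of 6 arrays at 0.57 ± 0.26 (SD, n = 6; limma, adjusted p = 0.0132). APP1, a phosphatidate phosphatase gene, stood at 0.59 ± 0.33 (adjusted p = 0.0166). SPO7, which encodes a regulatory subunit of the phosphatase that activates the phosphatidate phosphatase Pah1, stood at 0.56 ± 0.37 (0.0255). In the values as deposited all 3 calls were lost (adjusted p = 0.238 to 0.269). APP1 lost its call also without array 3 or array 6, and SPO7 without array 1, 3, 5 or 6. Both lost it with arrays 3 and 5 and arrays 4 and 6 averaged (adjusted p = 0.107 and 0.0956). With runs of neighbouring spots centred separately APP1 was at 0.34. None of 6 genes for the other products of CDP-diacylglycerol passed, or had an unadjusted p under 0.05. The one with the smallest p was GEP4, a phosphatidylglycerophosphatase gene, at -0.19 ± 0.15 (adjusted p = 0.336).

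Downstream, 1 of 9 genes of phosphatidylcholine turnover and remodelling rose and 2 fell, against 9.41% and 5.69% of all genes. PLB3, a phospholipase B gene, was higher at 0.58 ± 0.26 (SD, n = 6; limma, adjusted p = 0.0123), and at 0.31 with runs of neighbouring spots centred separately. PLB1, another phospholipase B gene, fell by 0.86 ± 0.88 and NTE1, which encodes the phospholipase B that deacylates phosphatidylcholine to glycerophosphocholine inside the cell, fell by 0.49 ± 0.22 on the log2 scale (adjusted p = 0.0395 and 0.0234). PLB1 stood at -1.35, -1.52, -1.89, -0.71, 0.16 and 0.16 on arrays 1 to 6, so it was low on 4 arrays and slightly above the median on arrays 5 and 6. Its call was lost without array 1, 2, 3 or 4. That of NTE1 was lost without array 1, 3 or 5, and none of these 3 genes was called in the values as deposited.

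Genes for the supply of the methyl donor showed no called change. None (0) of 7 genes for making and recycling S-adenosylmethionine passed by limma, and none had an unadjusted p under 0.05. Their median was 0.11. The SDs ran from 0.20 (MET12) to 0.81 (SAM1), with MET6 at 0.72 and MET13 at 0.70. The 95% interval was -0.41 to 0.63 for SAM1 and -0.66 to 0.29 for MET6. The lack of calls therefore does not show that these transcripts were unchanged. The gene with the smallest p was SAH1, S-adenosylhomocysteine hydrolase, at 0.18 ± 0.36 (SD, n = 6; adjusted p = 0.470), whose product clears the by-product of methylation.

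Of 5 genes that phosphorylate sphingoid bases, remove the phosphate or, in the case of the lyase gene DPL1, cleave the product to release phosphoethanolamine, none passed, and 1 had an unadjusted p under 0.05: LCB5, a sphingoid base kinase gene, at 0.33 ± 0.18 (SD, n = 6; limma, adjusted p = 0.0960). Of 9 measured genes listed under transfer of phosphatidylserine and phosphatidylethanolamine between membranes, 1 rose (9.41% over all genes). This was PDR16, whose own product is a phosphatidylinositol transfer protein, at 0.66 ± 0.61 (SD, n = 6; limma, adjusted p = 0.0396). Its call was lost without array 1, 3, 4, 5 or 6 and with runs of neighbouring spots centred separately (0.39, adjusted p = 0.152). None of 4 fatty acid synthesis genes passed, and 1 had an unadjusted p under 0.05: ACC1, acetyl-CoA carboxylase, at -0.32 ± 0.29 (adjusted p = 0.135).

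**Figure D4:**
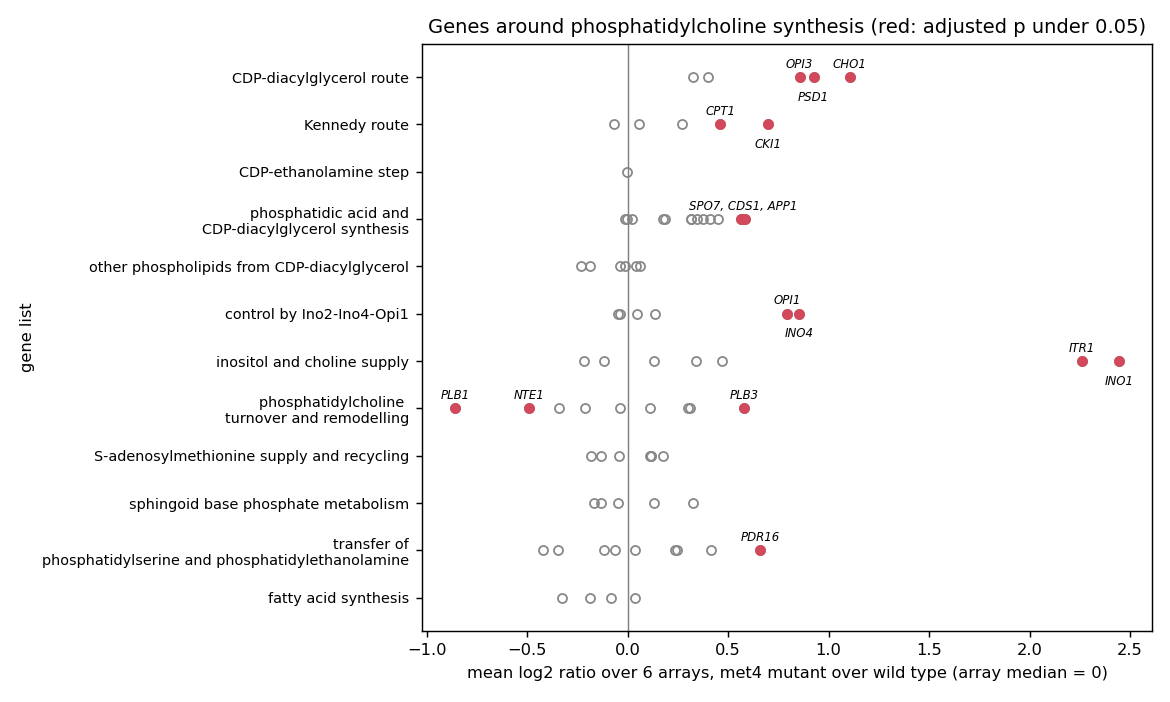
Mean log2 ratio over 6 arrays (horizontal axis, met4 mutant over wild type, array median at 0) for the genes of both routes and of each neighbouring list (rows), 1 circle per gene, with genes at an adjusted p under 0.05 filled red and named. INO1 and ITR1 lie furthest right, and PLB1 and NTE1 are the 2 called genes to the left of 0.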

How the data were processed

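Total RNA of the met4 mutant (Cy3, per the labels) and wild type (Cy5) was compared on 6 arrays. For each of 13056 spots the deposited table holds a log ratio between channels, read here as log2. How arrays were printed, scanned, background-corrected and normalized is not given here in any source used, and without intensities dim spots could not be told apart. Exact zeros (134) were set to missing. Arrays were centred on their median. Spots were named through the platform annotation (11138 with 1 gene, 1918 with none) and averaged to 5539 genes. Locus tags came from the R64 gene table. No other sample columns were present (0).

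Gene means were set against 0 by limma 3.58.1 under R 4.3.3 (intercept, eBayes, Benjamini-Hochberg over all genes, adjusted p under 0.05), and single genes by exact sign-flip permutation over 64 patterns. On simulated ratios for this comparison with 5539 genes, 200 of them changed, the share recovered was 35.8% for a log2 change of 0.5, 89.6% for 1 and 100% for 2, and 8 of 158 calls were false.

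The 10 genes, the lists and the tests were chosen with earlier results of these data known. Named genes were the 10, MET4, up to 6 called genes per list (if none, the one with the smallest p), and the 3 most correlated genes for CHO2, OPI3, PCT1 and CPT1. Of 69 listed genes 68 were matched. Alternatives were the values as deposited, equal array spread, quantile normalization, centring of 48 runs of consecutive spots, keeping zeros, leaving out each array, averaging arrays 3 with 5 and 4 with 6, robust empirical Bayes, array weights, the median of spots and a value on all arrays. Figures were drawn with matplotlib 3.10.9.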

Additional observations from a re-analysis of the deposited data

Results flagged for a closer look

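Of 30 gene values and differences checked for 1 array far from the other 5, 2 stood out, where chance gives about 1 in 20. PLB3 was at 0.067 on array 2, and the next array was at 0.60. ACC1 was at -0.89 on array 3, and the next array was at -0.33. None of the 10 phosphatidylcholine genes and none of the differences between routes stood out in this way.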

How the results depend on the processing

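Over 160 values of the 10 genes under alternatives, 136 kept direction and call, 18 lost the call and 1 gained it. The other 5 changed sign without a call on either side (PCT1 4 times and EPT1 once), and 0 called values changed sign. In the values as deposited 246 genes passed (3 of the 10, and 3 of the other listed genes), and with arrays 3 and 5 and arrays 4 and 6 averaged 366 passed (2 of the 10, CHO1 and CKI1, and 6 of the listed genes). Leaving out 1 array gave 456 to 965 genes, 2 to 4 of the 10 and 6 to 11 of the listed genes, and the last setting and these test fewer arrays. Why the values as deposited gave fewer calls was not tested, beyond the array medians of -0.95 to 0.92 that centring removes. With centring by runs of spots 5 of the 10 were called, with PSD2 in place of OPI3 (adjusted p = 0.0593). OPI3 and PSD1 also missed the threshold with arrays averaged (adjusted p = 0.191 and 0.0533), as CPT1 did (0.115). The difference between CHO2 with OPI3 and the Kennedy route was 0.23 to 0.46 over the 16 alternatives, that of the whole CDP-diacylglycerol route 0.28 to 0.61, and that against the choline branch 0.14 to 0.39. The ratios already pair mutant and wild type within each array, and with 1 group of ratios no replicate block could be added. The number of arrays limits the precision, and signal over background is unknown here.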

Other observations

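HNM1, the choline permease gene that supplies the Kennedy route, was chosen after its values were seen. It stood at -0.31, 0.28, -0.64, 1.24, -0.55 and 0.78 on arrays 1 to 6, with a mean of 0.13 ± 0.77 (SD, n = 6; limma, adjusted p = 0.748). It was above the median on arrays 2, 4 and 6, the arrays on which CHO1, PSD1 and CHO2 had their 3 highest values, and below it on arrays 1, 3 and 5. INO2, the partner of INO4, was also chosen after its values were seen and stood at 0.05 ± 0.36 (adjusted p = 0.869), with array values from -0.38 to 0.41.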
